A study of Mus musculus with 6 samples.

Results

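The splicing factors described here are the proteins that cut introns out of pre-mRNA, and their transcripts were followed through the meiotic maturation of the mouse oocyte. They were all probe sets of the array that its annotation maps to exactly 1 gene symbol, where that symbol starts with Snrp, Sf3, Srsf or Prpf or is U2af1, U2af2, Sf1, Bud31, Ppil3, Ppil1, Ppih, Cdc5l, Plrg1, Rbm8a, Tra2a or Tra2b. The rule gave 111 of the 21646 tested probe sets, and 48 of the 11429 genes with such a probe set. They fell into 13 Snrp probe sets of 8 genes, 27 Sf3 of 9 genes, 28 Srsf of 9 genes, 24 Prpf of 11 genes and 19 of the genes listed by name, of which 11 were measured. Ppih had no probe set with exactly 1 symbol. The rule reads names only, but it was set with earlier results of these data known, and its genes listed by name hold the 2 steepest falls of the 48 by brightest probe set, Ppil3 and Bud31.

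MII oocytes, arrested at metaphase of the second meiotic division, had been ovulated by mice that received 5 IU of eCG, a gonadotropin that stimulates follicles, and then 5 IU of hCG, which triggers maturation. They were taken from the oviduct 14 h after hCG, freed of cumulus cells with 1 mg/ml of hyaluronidase, and kept when a polar body was seen. GV oocytes, fully grown and still holding the germinal vesicle, as the oocyte nucleus is called, came from large antral follicles 44 to 46 h after 5 IU of eCG. They were stripped of cumulus cells with a narrow pipette and held in 5 µM of milrinone, which blocks the oocyte's phosphodiesterase and so keeps meiosis arrested. Mice of both groups were 22 to 24 days old, and neither strain nor genotype is given in the sources used here. Each stage had 3 biological replicates of 300 pooled oocytes, and 10 ng of total RNA from each was amplified over a pair of cDNA rounds and hybridised to 1 Affymetrix array. Stage therefore went together with hCG, ovulation, the way of removing cumulus cells and, for GV oocytes, milrinone, and these cannot be told apart.

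Splicing is carried out by the spliceosome, which is built anew on each intron from small nuclear ribonucleoproteins (snRNPs). The U1 snRNP binds the 5' splice site, and the U2 snRNP with its SF3A and SF3B complexes binds the branch point after SF1 and the U2AF pair have marked the 3' end of the intron. The U4/U6.U5 tri-snRNP, many of whose proteins are named Prpf, then joins, and the Prp19 complex helps to form the catalytic centre. SR proteins (Srsf genes) bind exons and recruit these components. Growing oocytes transcribe and splice actively, whereas fully grown GV oocytes are largely silent in transcription and the nuclear envelope is gone in MII oocytes. Stored transcripts are degraded or have their poly(A) tails changed during maturation.

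The values are log2 expression values as deposited, where a difference of 1 is a 2-fold change, and they are set between stages within a probe set only. Tested probe sets as a whole were lower on the MII arrays: the array medians were 5.49, 5.47 and 5.49 on the MII arrays, against 6.12, 6.10 and 6.10 on the GV arrays. These medians cover only the tested probe sets of the deposited table, and the cause of the gap was not tested. Over the splicing factor probe sets, pairs of arrays correlated at 0.988 to 0.991 within a stage and at 0.800 to 0.833 between stages, where all probe sets gave 0.988 to 0.991 and 0.885 to 0.906. All 12 oocyte markers were measured and lay above the median probe set, 7 of them called lower and 1 higher by their brightest probe sets with a median difference of -1.11, and with summed linear levels of 26360 to 27020 on MII arrays and 34260 to 36180 on GV arrays. Of 12 granulosa and cumulus markers 8 were measured, 2 of them above the median probe set, with 4 called lower and none higher with a median difference of -0.48, and with sums of 269.4 to 338.5 on MII arrays and 447.8 to 506.4 on GV arrays. The 5 measured cumulus expansion markers were all below the median probe set and none was called, with sums of 35.19 to 37.57 on MII arrays and 33.55 to 38.3 on GV arrays. Of all genes read in this way 37.8% were called lower and 10.5% higher. No marker was listed at 0. The part of these markers in the results below was not tested. In pooled oocytes, fewer cells that hold a transcript and less of it in each cell cannot be told apart.

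Of the 111 splicing factor probe sets, 40 were lower in MII oocytes and 19 higher at an adjusted p under 0.05 (limma, Benjamini-Hochberg over all tested probe sets), and 52 were not called. Among all tested probe sets 34.1% were called lower and 10.9% higher, against 36.0% lower and 17.1% higher among the splicing factors, so the share that fell was near the background. On the deposited scale 22 probe sets were lower by 2-fold or more and 1 higher by as much. This is near the shares of all tested probe sets, 20.6% and 1.53%. It moves with the scale: with array medians made equal, differences ranged between -6.14 (Ppil3) and 1.94 (Sf3b2). The median difference (MII minus GV) was -0.20 for the splicing factors and -0.15 for all tested probe sets, and the splicing factors ranged between -6.77 and 1.31. The MII and GV values did not overlap in 74 of the 111, where 54.0% of all tested probe sets did not. With each gene read from its brightest probe set, that is the one with the highest mean over the 6 arrays, 22 of 48 genes fell, 8 rose and 18 were not called. The same reading of all genes called 37.8% lower and 10.5% higher, and the median was -0.42 for the splicing genes and -0.20 for all genes.

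By group, Snrp probe sets had 4 falls and 5 rises with a median difference of 0.05, Sf3 probe sets 9 and 8 with a median of -0.12, and Srsf probe sets 9 and 4 with a median of -0.14. Prpf probe sets had 7 falls and 2 rises with a median of -0.22. The genes listed by name, which include the 3' splice site factors and proteins of the Prp19 complex, had 11 falls and no rise among 19 probe sets, with a median of -0.73, and since they were listed with earlier results known this count is a description only. Differences between the groups themselves were not tested. These directions hold for the deposited scale: with array medians made equal the 111 probe sets had 22 falls and 59 rises (19.9% and 55.5% of all tested), and with quantile normalization 26 falls and 44 rises (22.1% and 34.8%). With hybridization controls made equal they had 40 falls and 1 rise (33.2% and 0.480%), and with poly-A controls made equal 90 falls and 0 rises (84.9% and 0.300%). Without GV replicate 2 the rises on the deposited scale numbered 12 (7.15% of all tested). The median of all probe sets moved by 0.62, 0.34, -0.40 and -0.87 under these 4 scalings. All but quantile normalization shift every probe set's difference by the same amount. Under those the splicing factor median therefore stayed at -0.05 from the median of all probe sets by construction. With quantile normalization it was 0.05 from it.

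A set of 22 probe sets from 15 genes was called lower under the deposited scale and under each of the 4 others, which is 19.8% of the splicing factor probe sets and 19.6% of all tested. The 5 scalings are not separate checks. Array medians made equal alone left 22 of the 40 falls called, and the control scalings moved every difference further down (by -0.40 and -0.87), rises included. The 15 genes were Bud31, Ppil3, Prpf3, Prpf38a, Rbm8a, Sf1, Sf3a1, Sf3a2, Sf3a3, Sf3b2, Sf3b3, Srsf1, Srsf10, Srsf2 and Srsf9, of which the last 4 encode SR proteins or their relatives. For 14 of them the brightest probe set was among the 22. That of Sf3a1 was instead called higher on the deposited scale (0.51). Sf3a2, Sf3a3, Sf3b2 and Srsf10 also had dimmer probe sets called higher on that scale. No probe set was called higher in all 5: the 19 rises were kept with equal medians and with quantile normalization, 1 of them with hybridization controls and none with poly-A controls. Of these 19 rises, 1 turned sign with hybridization controls made equal and 18 with poly-A controls made equal. Hybridization control means were 9.42 to 9.86 on MII arrays and 8.94 to 9.82 on GV arrays. They overlap through GV replicate 1 (9.82), while GV replicates 2 and 3 were at 8.97 and 8.94, and their SD over the GV arrays was 0.5. How far this spread within a stage led to the calls lost on that scale was not tested. Poly-A control means did not overlap, at 5.14 to 5.43 on MII arrays and 4.28 to 4.71 on GV arrays.

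**Figure D1:**
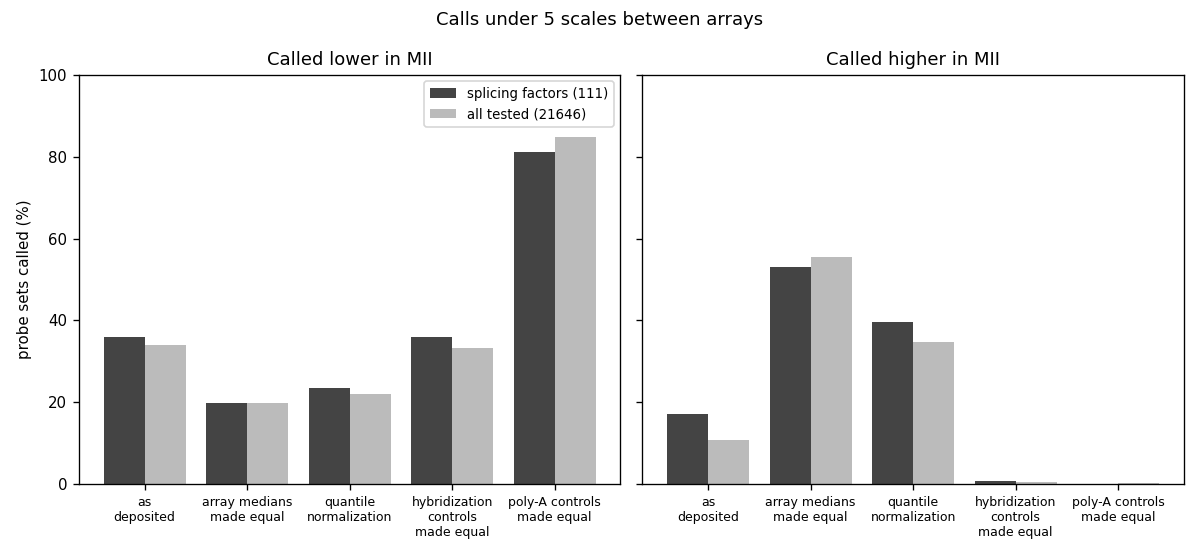
Percent of probe sets called lower and higher in MII oocytes (y axis) under each of the 5 scalings (x axis), for the 111 splicing factor probe sets beside all 21646 tested probe sets. The splicing factor share called lower is 36.0% on the deposited scale and moves with the scaling as the share of all probe sets does, and calls higher go to 0 of 111 with poly-A controls made equal.

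**Figure D2:**
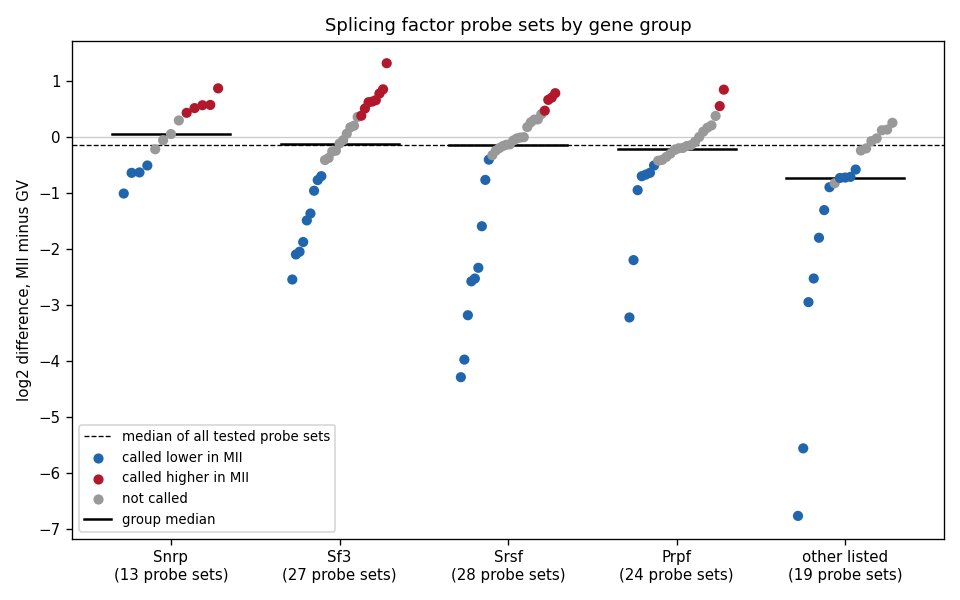
Log2 difference (MII minus GV) of each splicing factor probe set (points, y axis) by group (x axis), on the deposited scale, coloured by call, with group medians as solid lines and the median of all tested probe sets, -0.15, dashed. The genes listed by name reach -6.77 and hold no call higher, whereas Snrp probe sets lie between -1.01 and 0.87; the calls higher are lost, save 1, when hybridization controls are made equal, and all when poly-A controls are.

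Promoters are shown for the steepest falls and the largest rises, so that the sequences around their start sites can be compared. They are RefSeq windows on GRCm38.p6 from 250 bases before to 50 bases after the start of the gene, for the 2 steepest falls and the 2 largest rises among called genes with a single window. Capitals mark matches on either strand to any of 3 motifs, which do not overlap each other in these windows. They are the GC box, spelled GGGCGG, the TATA box, spelled TATAAA, and the core of sites for ETS factors, spelled CCGGAAG. Ppil3 and Srsf1 fell in MII oocytes, and Prpf39 and Srsf3 rose.
Ppil3, chr1:58445437-58445736, minus strand: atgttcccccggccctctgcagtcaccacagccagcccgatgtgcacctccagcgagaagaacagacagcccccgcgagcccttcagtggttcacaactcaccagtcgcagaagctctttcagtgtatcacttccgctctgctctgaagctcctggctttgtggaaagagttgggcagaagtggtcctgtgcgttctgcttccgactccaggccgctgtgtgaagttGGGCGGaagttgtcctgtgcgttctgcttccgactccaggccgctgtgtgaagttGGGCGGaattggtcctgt
Srsf1, chr11:88047123-88047422, plus strand: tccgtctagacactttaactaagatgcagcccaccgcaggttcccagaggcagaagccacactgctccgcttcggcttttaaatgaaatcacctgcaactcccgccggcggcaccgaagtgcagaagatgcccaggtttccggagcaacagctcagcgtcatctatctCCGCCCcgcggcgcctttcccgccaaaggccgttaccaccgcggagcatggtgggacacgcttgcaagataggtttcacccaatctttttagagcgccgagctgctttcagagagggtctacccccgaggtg
Prpf39, chr12:65036084-65036383, plus strand: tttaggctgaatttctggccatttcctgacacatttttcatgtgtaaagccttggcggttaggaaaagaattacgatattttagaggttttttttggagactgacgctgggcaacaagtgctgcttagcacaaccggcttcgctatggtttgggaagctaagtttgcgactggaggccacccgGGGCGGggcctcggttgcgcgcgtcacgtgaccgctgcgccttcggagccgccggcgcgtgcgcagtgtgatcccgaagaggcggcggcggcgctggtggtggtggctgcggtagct
Srsf3, chr17:29032410-29032709, plus strand: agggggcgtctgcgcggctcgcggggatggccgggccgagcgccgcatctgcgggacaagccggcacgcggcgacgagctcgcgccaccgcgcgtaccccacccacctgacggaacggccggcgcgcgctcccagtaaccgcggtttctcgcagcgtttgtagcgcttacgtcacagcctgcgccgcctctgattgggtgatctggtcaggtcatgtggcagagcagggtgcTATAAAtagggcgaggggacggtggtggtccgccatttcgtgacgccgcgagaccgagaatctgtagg
The Ppil3 window has 2 GC boxes, and Srsf1 and Prpf39 have 1 each. Srsf3 has 1 TATA box and no GC box, and CCGGAAG was in none of these 4 windows. A window was matched for 42 of the 48 genes, with 50 windows in all; none was matched for Prpf18, Rbm8a, Sf3b4, Sf3b5, Snrpb and U2af2. The GC box was in 66% of the 50 windows, against 35.7% of all 32851 windows in the table, the ETS core in 42% against 8.86%, and the TATA box in 6% against 13.6%. By the call of the brightest probe set, the GC box was in 14 of 19 genes that fell, 6 of 8 that rose and 8 of 15 not called. The ETS core was in 8 of 19, 3 of 8 and 7 of 15, and the TATA box in 2 of 19, 1 of 8 and 0 of 15. These matches describe the letters only.

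Among the snRNP proteins, 3 of 8 genes fell by their brightest probe set and 3 rose, with differences between -1.01 and 0.57. The same reading called 37.8% of all genes lower and 10.5% higher. Snrpc, the U1 protein that helps to hold the 5' splice site, had values of 7.22, 7.35 and 7.46 in MII oocytes, against 8.21, 8.67 and 8.20 in GV oocytes. The stages did not overlap, and the difference of -1.01 ± 0.16 (moderated SE, n = 3 each, adjusted p = 0.000597) was the steepest fall of the group. Snrpb, a protein of the Sm ring shared by the spliceosomal snRNPs, had values of 4.76, 5.20 and 5.15 in MII oocytes, against 5.29, 6.08 and 5.67 in GV oocytes, a difference of -0.64 ± 0.21 (adjusted p = 0.0315). All of its values were below the medians of their arrays. Snrpa1, a protein of the U2 snRNP, had values of 8.92, 9.01 and 8.45 in MII oocytes, against 9.60, 9.23 and 9.46 in GV oocytes, and differed by -0.63 ± 0.18 (adjusted p = 0.0158). A dimmer Snrpa1 probe set also fell (-0.51), and another was not called (-0.22). With array medians made equal the calls of Snrpc, Snrpb and Snrpa1 were lost (-0.39, -0.02 and -0.01). The call of Snrpb was also lost without GV replicate 2 (-0.44), GV replicate 3 (-0.65) or MII replicate 1 (-0.50), and that of Snrpa1 without GV replicate 1 (-0.55) or MII replicate 3 (-0.46).

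The rises in this group were in another U2 protein and in the Sm ring. Snrpg, an Sm ring protein, had values of 10.95, 11.11 and 10.99 in MII oocytes, against 10.61, 10.41 and 10.32 in GV oocytes, so the stages did not overlap. It differed by 0.57 ± 0.14 (adjusted p = 0.00725), and its second, dimmer probe set by 0.87 ± 0.15 (adjusted p = 0.000822). Snrpd3, also of the ring, had values of 8.24, 8.28 and 8.75 in MII oocytes, against 7.67, 8.13 and 7.93 in GV oocytes and a difference of 0.51 ± 0.18 (adjusted p = 0.0434), with a dim probe set not called (-0.06). Snrpb2, the protein that pairs with Snrpa1, had values of 9.74, 9.83 and 9.91 in MII oocytes, against 9.39, 9.32 and 9.48 in GV oocytes. It differed by 0.43 ± 0.13 (adjusted p = 0.0231) and by 0.56 on its other probe set, also called. Snrpa1 and Snrpb2, partners in the U2 snRNP, were thus called in opposite directions on the deposited scale. The call of Snrpd3 was kept only when GV replicate 2 or MII replicate 1 was the array left out, and its differences without the others were 0.35 to 0.59. The call of brightest Snrpb2 was kept only without GV replicate 3 or without MII replicate 1, and its differences otherwise were 0.39 to 0.43. Snrpe differed by 0.05 (95% interval -0.27 to 0.37) and Snrpf by 0.29 (-0.08 to 0.67), and neither was called on the deposited scale. Both were called higher with array medians made equal (0.67 and 0.92) and with quantile normalization (0.36 and 0.92). With poly-A controls made equal both were called lower (-0.82 and -0.58).

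At the 3' end of the intron, SF1 and the U2AF pair were all lower in MII oocytes. Sf1, which binds the branch point before the U2 snRNP does, had values of 9.84, 9.79 and 9.56 in MII oocytes, against 12.41, 12.23 and 12.13 in GV oocytes. Its brightest probe set differed by -2.53 ± 0.15 (adjusted p = 3.61e-07) and a second one by -0.58, also called, while the remaining pair was not called (-0.08 and 0.25). U2af1, the subunit that reads the AG at the 3' splice site, had values of 7.65, 8.19 and 8.14 in MII oocytes, against 8.67, 9.11 and 8.89 in GV oocytes. U2af2, the subunit that binds the polypyrimidine tract, had values of 8.0, 8.20 and 8.16 in MII oocytes, against 8.80, 9.02 and 8.70 in GV oocytes. In all 3 genes the stages did not overlap, and the U2AF differences were -0.90 ± 0.19 (adjusted p = 0.00271) and -0.71 ± 0.14 (adjusted p = 0.00239). Both U2AF calls, but not that of Sf1, were lost with array medians made equal (-0.28 and -0.09) and with quantile normalization (-0.36 and -0.17).

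Of the 9 Sf3 genes, which encode the SF3A and SF3B complexes of the U2 snRNP, 5 fell by their brightest probe set, 2 rose and 2 were not called. Among all genes 37.8% were called lower and 10.5% higher. Sf3b3, a large scaffold protein of SF3B, had values of 6.70, 6.85 and 6.68 in MII oocytes, against 9.55, 9.29 and 9.03 in GV oocytes. This was the steepest fall of the group, -2.55 ± 0.16 (adjusted p = 6.62e-07), on its only probe set. Sf3a3, a subunit of SF3A, had values of 7.83, 7.75 and 7.83 in MII oocytes, against 9.56, 10.13 and 10.02 in GV oocytes, and differed by -2.10 ± 0.17 (adjusted p = 3.38e-06). Sf3a2, its partner, had values of 7.89, 8.33 and 7.91 in MII oocytes, against 9.996, 9.93 and 9.83 in GV oocytes, and differed by -1.88 ± 0.16 (adjusted p = 4.93e-06). Sf3b2, which contacts the pre-mRNA near the branch point, had values of 7.97, 8.23 and 7.82 in MII oocytes, against 9.63, 9.36 and 9.50 in GV oocytes, and differed by -1.49 ± 0.15 (adjusted p = 2.26e-05). Sf3b6, the small subunit close to the branch adenosine, was dim and differed by -0.70 ± 0.20 (adjusted p = 0.0164), a call that was lost without GV replicate 2 (-0.60) and with array medians made equal (-0.08). In each of these genes the MII and GV values of the brightest probe set did not overlap.

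The rises were small. Sf3a1, the largest SF3A subunit, had values of 8.57, 8.58 and 8.49 in MII oocytes, against 8.19, 8.02 and 7.90 in GV oocytes, and differed by 0.51 ± 0.14 (adjusted p = 0.0126). Sf3b1, the subunit that grips the branch point duplex, had values of 11.06, 11.07 and 11.28 in MII oocytes, against 10.77, 10.80 and 10.72 in GV oocytes, and differed by 0.38 ± 0.13 (adjusted p = 0.0423). Its brightest call was lost without any 1 of the 6 arrays (0.31 to 0.42) and with a replicate block, while a second probe set rose by 0.65 ± 0.13 (adjusted p = 0.00211) and another by 0.63, a call lost without GV replicate 2 (0.48) or MII replicate 1 (0.45). Sf3b4 differed by -0.12 (-0.50 to 0.27) and Sf3b5 by -0.38 (-0.76 to 0.00), without a call.

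**Figure D3:**
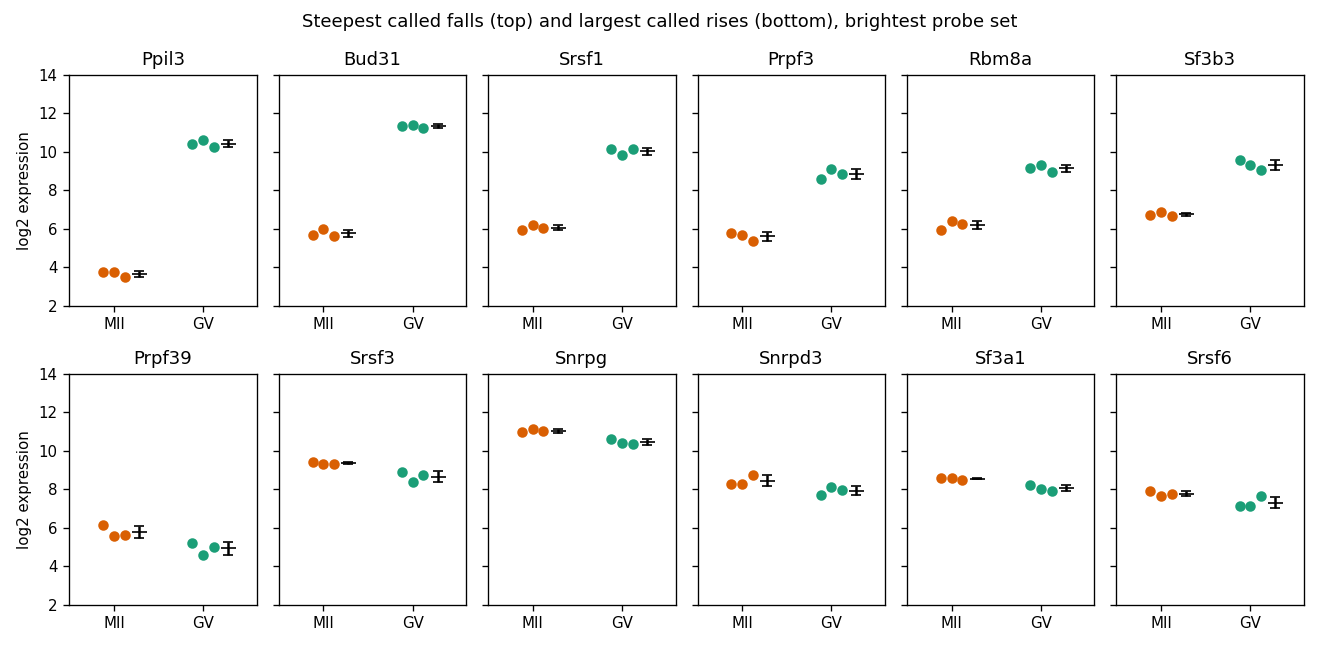
Deposited log2 value on each of the 3 MII and 3 GV arrays (points; y axis, log2 expression; x axis, stage) with the stage mean and SD (black bars), for the brightest probe set of 6 genes called lower (top) and 6 called higher (bottom). Ppil3 sits between 3.48 and 3.75 on the MII arrays, against 10.25 to 10.62 on the GV arrays, and Srsf3 is among the genes whose MII values are all above their GV values.

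Of the 9 SR protein genes, 4 fell, each by more than 2-fold, 2 rose and 3 were not called. Among all genes 37.8% were lower and 10.5% higher, and 2641 of 11429 were lower by 2-fold or more. Srsf1, the founding SR protein, which binds exonic enhancers and also acts in mRNA export and translation, had values of 5.92, 6.19 and 6.04 in MII oocytes, against 10.13, 9.82 and 10.14 in GV oocytes. It differed by -3.98 ± 0.15 (adjusted p = 3.3e-08), and 3 further probe sets fell by 4.29, 3.18 and 2.58 on the log2 scale. The other 2 were not called, at 0.26 and -0.25, and the brighter of these had values of 7.54, 7.40 and 7.78 in MII oocytes, against 6.94, 7.12 and 7.88 in GV oocytes. Srsf9, a short relative of Srsf1, had values of 5.05, 5.27 and 5.31 in MII oocytes, against 7.78, 7.84 and 7.60 in GV oocytes, all MII values being below the array medians, and differed by -2.53 ± 0.14 (adjusted p = 3.09e-07). Srsf10, which represses splicing when dephosphorylated, had values of 6.51, 6.41 and 6.44 in MII oocytes, against 8.62, 8.70 and 9.04 in GV oocytes, and differed by -2.34 ± 0.15 (adjusted p = 7.5e-07). Srsf2, an SR protein that stays in the nucleus, had values of 7.93, 7.76 and 7.13 in MII oocytes, against 8.999, 9.24 and 9.37 in GV oocytes, and differed by -1.60 ± 0.21 (adjusted p = 0.000138), while its 3 dimmer probe sets were not called (0.41, -0.07 and 0.31).

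Srsf3, the smallest SR protein, rose, with values of 9.43, 9.31 and 9.31 in MII oocytes, against 8.89, 8.35 and 8.71 in GV oocytes. It differed by 0.70 ± 0.16 (adjusted p = 0.00543) and by 0.78 ± 0.17 (adjusted p = 0.00337) on a second probe set, and its other 3 probe sets were not called, between -0.01 and 0.31. Srsf6 had values of 7.89, 7.65 and 7.73 in MII oocytes, against 7.12, 7.13 and 7.61 in GV oocytes. The stages did not overlap, yet the difference of 0.47 ± 0.17 (adjusted p = 0.0454) lost its call without any array except GV replicate 3, with a replicate block and with an intensity trend in the fit. Srsf4 differed by -0.01 (-0.35 to 0.34), Srsf5 by -0.03 (-0.40 to 0.35) and Srsf11 by -0.16 (-0.49 to 0.16), and none was called. The SR-like Tra2 proteins bind GAA-rich enhancers. Tra2a had values of 6.53, 6.75 and 6.78 in MII oocytes, against 6.96, 6.39 and 6.79 in GV oocytes, and Tra2b of 9.87, 9.80 and 9.79 in MII oocytes, against 9.80, 9.63 and 9.68 in GV oocytes. Their stages overlapped, and the differences of -0.03 (-0.41 to 0.36) and 0.12 (-0.17 to 0.41) were not called on the deposited scale. Both were called higher with array medians made equal (0.60 and 0.74) and with quantile normalization (0.64 and 0.47). With poly-A controls made equal both were called lower (-0.90 and -0.75).

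Among the 11 Prpf genes, 2 fell by their brightest probe set, 1 rose and 8 were not called, beside 37.8% lower and 10.5% higher among all genes. Prpf3, which with Prpf4 holds the U4/U6 pair of the tri-snRNP, had values of 5.79, 5.69 and 5.36 in MII oocytes, against 8.58, 9.09 and 8.85 in GV oocytes, and differed by -3.22 ± 0.18 (adjusted p = 2.62e-07). Its partner Prpf4 differed by -0.43 (-0.78 to -0.07) and was not called, with all values below the array medians. Prpf38a, a protein of the spliceosome before its activation, had values of 6.71, 6.87 and 7.02 in MII oocytes, against 8.88, 9.40 and 8.92 in GV oocytes, and differed by -2.20 ± 0.17 (adjusted p = 3.08e-06). Its relative Prpf38b differed by 0.16 (-0.19 to 0.51), with 1 further probe set called lower (-0.51). Prpf39, a U1-associated factor in yeast, had values of 6.11, 5.55 and 5.61 in MII oocytes, against 5.21, 4.55 and 4.98 in GV oocytes. It differed by 0.84 ± 0.21 (adjusted p = 0.00787), which is the largest rise among the brightest probe sets here, and by 0.55 on a second probe set, while another was not called (-0.23). The call of the second probe set was lost without GV replicate 2 (0.32) and without any of the 3 MII arrays (0.54 to 0.56), and as a mean of its probe sets Prpf39 was not called (0.39).

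On the deposited scale the core Prpf proteins were not called by their brightest probe sets. With array medians made equal Prpf6 (1.00), Prpf31 (0.48) and Prpf8 (0.46) were called higher, and with quantile normalization Prpf6 (0.68) and Prpf31 (0.46). With poly-A controls made equal Prpf8, Prpf31, Prpf18, Prpf19 and Prpf4b were called lower, and Prpf6 was not called. Values that follow are on the deposited scale. Prpf8, the scaffold around the catalytic RNA, differed by -0.16 (-0.52 to 0.19). Prpf6, which bridges U5 and U4/U6, differed by 0.37 (0.02 to 0.73) and Prpf31, a U4/U6 protein, by -0.15 (-0.47 to 0.18). Prpf18, a factor of the second step, differed by -0.20 (-0.70 to 0.29). Prpf19, the ubiquitin ligase that names the Prp19 complex, differed by -0.36 (-0.80 to 0.08) on its brightest probe set and was called lower on the next pair (-0.70 and -0.64). Prpf4b, a kinase of the tri-snRNP, differed by -0.41 (-0.78 to -0.04) and was called lower on 2 of its 4 dimmer probe sets (-0.95 and -0.67).

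The steepest falls of all 48 genes were in Ppil3 and Bud31, both proteins of the assembled spliceosome. Ppil3, a cyclophilin (peptidyl-prolyl isomerase), had values of 3.75, 3.74 and 3.48 in MII oocytes, against 10.41, 10.62 and 10.25 in GV oocytes. Every MII value was below the array median and every GV value well above it, a difference of -6.77 ± 0.15 (adjusted p = 6.99e-09). Whether the MII values lie above background was not analysed here, so no fold is given. Bud31, a small protein of the catalytic spliceosome, had values of 5.65, 5.98 and 5.64 in MII oocytes, against 11.33, 11.42 and 11.21 in GV oocytes, a difference of -5.56 ± 0.15 (adjusted p = 1.03e-08). A second Bud31 probe set fell by less, at -1.80 ± 0.20 (adjusted p = 4.33e-05), and a dim one was not called (-0.24). Rbm8a, the Y14 protein that splicing leaves on the mRNA as part of the exon junction complex, had values of 5.96, 6.39 and 6.23 in MII oocytes, against 9.15, 9.32 and 8.97 in GV oocytes. Both of its probe sets fell, with differences of -2.95 ± 0.16 (adjusted p = 2.6e-07) and -1.31 ± 0.20 (adjusted p = 0.000445), and it was the 1 gene with several probe sets that were all called lower.

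Smaller falls were seen in proteins of the Prp19 complex or known to work beside it. Plrg1, a core protein of the complex, was abundant on the arrays, with values of 9.996, 10.12 and 10.04 in MII oocytes, against 10.58, 11.03 and 10.72 in GV oocytes and a difference of -0.73 ± 0.15 (adjusted p = 0.00298). Ppil1, a cyclophilin that acts on the activated spliceosome, was dim, with values of 3.59, 3.65 and 3.62 in MII oocytes, against 4.16, 4.41 and 4.49 in GV oocytes and a difference of -0.73 ± 0.14 (adjusted p = 0.00167). Both calls were lost with array medians made equal (-0.10 and -0.11). Cdc5l, another core protein of the complex, had values of 3.68, 3.18 and 4.64 in MII oocytes, against 4.41, 5.05 and 4.52 in GV oocytes, and the stages overlapped through MII replicate 3. Its difference of -0.83 ± 0.33 was not called (adjusted p = 0.0638), and without MII replicate 3 it was -1.23 and called.

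Several probe sets were present for 29 of the 48 genes, of which 6 had calls both lower and higher, namely Sf3a1, Sf3a2, Sf3a3, Sf3b2, Srsf10 and Srsf6. Among all genes with several probe sets 513 of 4739 (10.8%) were called both ways. For Sf3b2, the gene with the most probe sets, 3 were lower (-1.49, -1.37 and -0.96), 2 were higher (1.31 and 0.77) and 2 were not called (-0.26 and -0.06). The probe set with the largest rise had values of 9.21, 9.10 and 9.15 in MII oocytes, against 7.74, 7.60 and 8.18 in GV oocytes, and the brightest one had values of 7.97, 8.23 and 7.82 in MII oocytes, against 9.63, 9.36 and 9.50 in GV oocytes. The Sf3b2 probe set with the rise of 1.31 ± 0.17 (adjusted p = 0.000107) was the only splicing factor probe set still called higher with hybridization controls made equal (0.91), and it was not with poly-A controls. For Sf3a1 a probe set at 7.01, 6.88 and 7.28 in MII oocytes, against 9.17, 9.22 and 8.93 in GV oocytes, fell by 2.05 on the log2 scale beside the brightest one, which rose. For Sf3a3 a probe set with values of 8.26, 8.08 and 8.44 in MII oocytes, against 7.46, 7.31 and 7.47 in GV oocytes rose by 0.85 ± 0.14 (adjusted p = 0.000804) beside the brightest one, which fell.

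The remaining pairs were closer. A dim Sf3a2 probe set was higher by 0.62, a call lost without any array except MII replicate 1 and at 0.35 without MII replicate 3, beside the brightest one at -1.88. In Srsf10, 1 probe set was higher by 0.66 and another lower, at -0.77, beside the brightest one at -2.34, and the call of the rise was lost without GV replicate 1 (0.50), GV replicate 2 (0.63) or MII replicate 1 (0.58). In Srsf6, a probe set was lower, at -0.41, beside the rise of 0.47 on the brightest one, and each of these calls was lost without any array except GV replicate 3. Averaged over all their probe sets, Sf3a1 (-0.25) and Srsf6 (-0.07) were below 0, neither of them called, and Sf3b2 (-0.29), Srsf2 (-0.24), Prpf39 (0.39) and Snrpd3 (0.23) lost their calls, while Prpf4b (-0.46) was called lower. Cdc5l, whose 1 probe set gives the same -0.83, was also called in that fit, which tests fewer units. Of the genes not called both ways, 21 had only calls lower, 6 only calls higher and 15 none. Snrpb2 and Snrpg were the 2 genes with several probe sets that were all called higher. Probe sets of one gene share a target gene but may read different transcripts or ends of it, and which transcripts each reads was not analysed here.

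**Figure D4:**
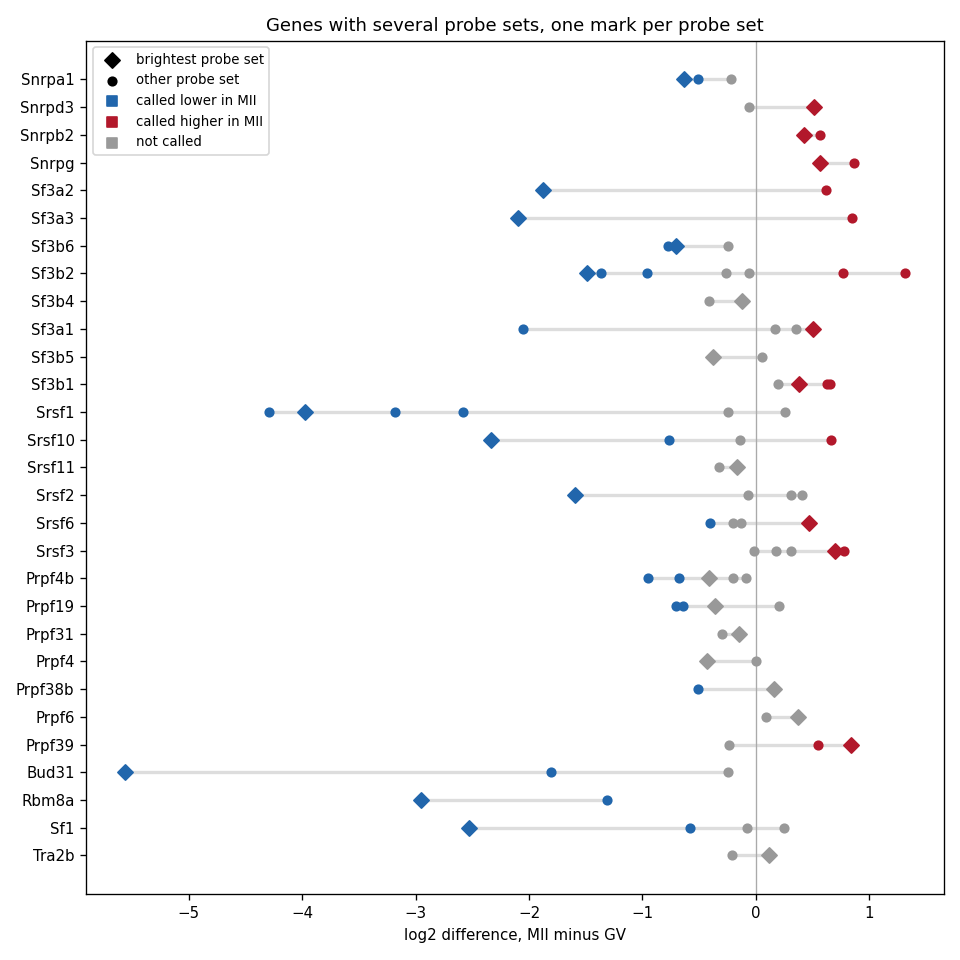
Log2 difference (MII minus GV, x axis) of every probe set (diamonds, the brightest of a gene; circles, the others) of the 29 genes with several probe sets (rows), coloured by call on the deposited scale. Sf3b2 spreads between -1.49 and 1.31 and Srsf1 between -4.29 and 0.26, and in 6 genes calls lower and higher stand in the same row; the calls higher are lost, save 1, with hybridization controls made equal, and all with poly-A controls.

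Some snRNP proteins were on probe sets that carry several symbols, and these stood outside the 111; near-identical copies may share their signal. The probe set annotated to Gm5848 and Snrpd2, an Sm ring protein, had values of 3.79, 3.46 and 3.79 in MII oocytes, against 8.92, 9.33 and 8.76 in GV oocytes. It differed by -5.32 (adjusted p = 2.31e-08), a steeper fall than that of any Snrp probe set with 1 symbol. The one annotated to Gm21559, Gm5161 and Snrpa, a U1 snRNP protein, differed by -0.89 (adjusted p = 0.000288). The one for Gm14277 and Snrpd1 differed by 0.17 and was not called. Of 3 probe sets for Gm17748 and Ppih, a cyclophilin of the tri-snRNP, 1 was higher by 0.46 (adjusted p = 0.0235), and of 4 for Snurf and Snrpn 1 was higher by 0.44 (adjusted p = 0.0375).

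Of 138 further splicing genes, in lists compiled from general knowledge, 118 were measured, and by their brightest probe sets 57 were lower, 9 higher and 52 not called, with a median difference of -0.48, where 37.8% of all genes were lower and 10.5% higher with a median of -0.20. The counts moved with the scale. They were 43 lower and 51 higher with array medians made equal (22.5% and 52.2% of all genes), and 44 and 40 with quantile normalization (24.5% and 34.5%). They were 60 and 1 with hybridization controls (36.7% and 0.437%), and 102 and 1 with poly-A controls (86.5% and 0.271%). The counts by list that follow are on the deposited scale, to be read beside the 37.8% and 10.5%. Of 10 other U5 and tri-snRNP proteins 6 fell and none rose. Eftud2, the U5 GTPase, had values of 5.88, 5.70 and 5.52 in MII oocytes, against 9.66, 9.55 and 9.20 in GV oocytes, and differed by -3.77 ± 0.17 (adjusted p = 6.85e-08). Usp39, a tri-snRNP protein, differed by -3.58 ± 0.14 (adjusted p = 4.13e-08). Of 7 proteins named Snrnp 4 fell and none rose, among them the helicase Snrnp200 at -1.85 ± 0.18 (adjusted p = 1.36e-05) and Snrnp25 of the minor spliceosome at -2.19. Of 6 measured Lsm2 to Lsm8 genes, the ring of the U6 snRNP, 4 fell, with Lsm3 at -2.50 and Lsm4 at -1.55.

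Of 10 other U2 factors 3 fell and 1 rose. Puf60, which helps U2AF at the 3' splice site, had values of 5.37, 5.59 and 5.55 in MII oocytes, against 10.52, 10.08 and 9.70 in GV oocytes, the steepest of the falls named from these lists at -4.60 ± 0.20 (adjusted p = 6.63e-08), and Sugp1, a G-patch protein, was at -2.34. Ddx46, the helicase that remodels the U2 snRNP, rose by 0.88 ± 0.14 (adjusted p = 0.000472) on its brightest probe set, while another of its probe sets was lower. Of 27 genes for the Prp19 complex, its partners and the catalytic steps 17 fell and 3 rose, with Cwf19l2 at -3.96, the cyclophilin Ppwd1 at -3.68, and the cyclophilin Ppig higher by 1.501 ± 0.44 (adjusted p = 0.0178) with another probe set lower. The Ppig call was kept only without GV replicate 1 or without MII replicate 3, and its differences without the other arrays were 1.10 to 1.42. Of 5 minor spliceosome genes 4 fell, with Rnpc3 at -2.74 and Zcrb1 at -1.06. Of 10 snRNP assembly genes 6 fell and 2 rose, with Snupn, the import adaptor of snRNPs, at -3.25, Gemin7 at -2.17 and Smn1, with which it forms a complex, higher by 0.70 ± 0.19 (adjusted p = 0.0124). Of 38 regulators and SR kinases 13 fell and 3 rose, with the helicase Ddx39b at -4.03, Hnrnpk at -2.78, and the nuclear speckle protein Son higher by 1.03 ± 0.19 (adjusted p = 0.00155), 2 of its other probe sets being lower. On the exon junction complex list, Eif4a3, Magoh, Magohb, Casc3 and Sap18 had no probe set with exactly 1 symbol. Rbm8a, of the same complex but among the 48 genes, fell on both probe sets, as given above (-2.95 and -1.31). The 5 measured genes of the list were Rnps1, Acin1, Pnn, Srrm1 and Srrm2, so they do not stand for the whole complex. Rnps1 had 2 dimmer probe sets called higher on the deposited scale. By their brightest probe sets none of the 5 was called by limma on that scale, 0 had an unadjusted p under 0.05, and their median difference was 0.17. All 5 were called higher with array medians made equal and with quantile normalization, where 52.2% and 34.5% of all genes were, none was called with hybridization controls made equal, and each of the 5 fell once poly-A controls were set level, where 86.5% of all genes did. Rises of Ddx46, Son and Smn1 were lost with hybridization controls made equal (0.47, 0.62 and 0.30), and that of Smn1 also without MII replicate 2 (0.56).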

How the data were processed

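The deposited table holds log2 values of 6 Affymetrix arrays, made by the authors with RMA and the affy package per the submitters' processing notes, without versions. Background and filter settings are unstated. Values run from 1.85 to 13.3. The array of GV replicate 1 holds 7077 distinct values, and all 6 arrays share the highest value. Single values also recur between arrays, such as 10.4122 for Snrpg on GV replicate 2 and for Ppil3 on GV replicate 1. Whether a step gave each array the same set of values was not tested, and the medians of the tested probe sets differ between stages. Of 21702 probe sets, 56 controls were set aside and 21646 tested (19078 with 1 symbol, 550 with several, 2018 with none). Labelling used mixed primers in place of oligo(dT), per the labels' protocols. The number of arrays limits the precision.

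MII was compared with GV in limma 3.58.1 (R 4.3.3; lmFit and eBayes, 2-sided, group only), p-values adjusted by Benjamini-Hochberg across the 21646 probe sets, a threshold of 0.05, and 9.78 degrees of freedom, 5.78 of them from the prior. The fit was tested on simulated data. Members and lists were chosen with earlier results of these data known. Genes were read from the brightest probe set, and in each group up to 4 called genes with the largest fall and up to 3 with the largest rise are given by array, with all genes listed by name; of other splicing genes, up to 2 falls and 1 rise per list. All 48 member symbols matched RefSeq (GRCm38.p6). Promoter windows and motifs were chosen after the values were seen, and protein sequences were not used here. Alternatives were other scalings, a filter on dim probe sets, left-out replicates and probe set types, 1 value per gene, an intensity trend and a replicate block.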

Additional observations from a re-analysis of the deposited data

How the results depend on the processing

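Scaling moved most counts, and the array medians differed between stages, so the share of falls and rises is known only relative to a scale; the cause was not tested. Falls and rises are given below in this order for all 111 probe sets, then for Snrp, Sf3, Srsf, Prpf and the genes listed by name. On the deposited scale they were 40 and 19, then 4 and 5, 9 and 8, 9 and 4, 7 and 2, and 11 and 0. With array medians made equal they were 22 and 59, then 0 and 9, 7 and 16, 7 and 17, 2 and 11, and 6 and 6, with a median of 0.42. With quantile normalization they were 26 and 44, then 1 and 8, 7 and 12, 7 and 14, 3 and 7, and 8 and 3, with a median of 0.24. With hybridization controls made equal they were 40 and 1, then 4 and 0, 9 and 1, 8 and 0, 7 and 0, and 12 and 0, with a median of -0.61. With poly-A controls made equal they were 90 and 0, then 8 and 0, 19 and 0, 23 and 0, 21 and 0, and 19 and 0, with a median of -1.08.

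Fewer units gave fewer calls by construction. With 1 probe set per gene the counts were 22 and 8, then 3 and 3, 5 and 2, 4 and 2, 2 and 1, and 8 and 0, with a median of -0.42. With the mean of each gene's probe sets they were 22 and 4, then 3 and 2, 4 and 1, 3 and 1, 3 and 0, and 9 and 0, where 4573 of all 11429 genes fell and 1147 rose. Without the probe set types _s_at and _x_at, which may bind several transcripts, 26 splicing factor probe sets were lower and 16 higher. The 26 held 2 Snrp, 5 Srsf and 7 of the genes listed by name. Of all probe sets left once these types were removed, 32.3% were lower and 10.9% higher. With probe sets below the median probe set mean left out, 33 of 80 splicing factor probe sets were lower and 17 higher. Of all probe sets kept by this filter 41.0% were lower and 16.2% higher. The filter left 0 Prpf probe sets higher because it removed both Prpf39 rises, which were dim. Leaving out each array in turn gave 37 to 40 falls and 12 to 17 rises, with 3 to 5 rises in Snrp, 5 to 6 in Sf3, 2 to 5 in Srsf and 1 to 2 in Prpf, and a median between -0.22 and -0.19, while 30.8% to 32.1% of all tested probe sets fell and 7.15% to 9.83% rose. The lowest count of rises, 12, came without GV replicate 2. The titles number replicates 2 and 3 of each stage, and the array without a number was taken as replicate 1. The deviations of same-numbered arrays correlated at 0.09, 0.03 and 0.03, and those of other pairs at -0.284 to 0.287. With 3 arrays per stage, these correlations cannot decide whether same-numbered arrays share a litter or day. The titles do not state it, so the arrays were not taken as pairs. With the replicate block there were 41 falls and 17 rises, with a median of -0.20, and each group's counts moved by at most 1, while 33.7% of all tested probe sets fell and 11.1% rose. An intensity trend in the fit moved no count of the splicing factors by over 1.5 times.

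Of the 111 probe sets, 37 turned sign with array medians made equal, 33 with quantile normalization, 18 with hybridization controls and 36 with poly-A controls, of which 11, 18, 17 and 2 were called on neither scale. Values follow for the genes named in the text, where a brightest probe set, or a dimmer one called on the deposited scale, turned sign and was called on at least 1 of the scales. With array medians made equal, differences were 0.48 for Prpf31, 0.46 for Prpf8, 0.50 for Sf3b4, 0.46 for Srsf11, 0.62 for Srsf4, 0.60 for Srsf5 and 0.60 for Tra2a, and on dimmer probe sets 0.11 for Prpf38b, 0.040 for Sf1, 0.11 for Snrpa1 and 0.22 for Srsf6. With quantile normalization they were 0.46 for Prpf31, 0.46 for Sf3b4, 0.50 for Srsf11, 0.58 for Srsf5 and 0.64 for Tra2a, and on dimmer probe sets 0.072 for Prpf38b, 0.092 for Sf1, 0.13 for Snrpa1 and 0.25 for Srsf6. With hybridization controls Sf3b1 was at -0.027, and as means of their probe sets Sf3a1 was at -0.25 and Srsf6 at -0.069, beside 1 further gene that turned with no call. With poly-A controls the values were -0.71 for Prpf38b, -0.029 and -0.32 for Prpf39, -0.37 for Sf3a1, -0.25 for Sf3a2, -0.023 for Sf3a3, -0.50, -0.24 and -0.22 for Sf3b1, -0.10 for Sf3b2, -0.17 for Smn1, -0.44 and -0.31 for Snrpb2, -0.36 for Snrpd3, -0.82 for Snrpe, -0.58 for Snrpf, -0.30 and -0.0063 for Snrpg, -0.21 for Srsf10, -0.17 and -0.093 for Srsf3, -0.41 for Srsf6 and -0.75 for Tra2b. No probe set called on the deposited scale was called the other way under the 4 scalings.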
